A study of Homo sapiens with 6 samples.

Results

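Homologous recombination copies an intact sister chromatid to mend a broken chromosome, and the Fanconi pathway unhooks crosslinks between the strands of DNA and hands the break to the same machinery. The 37 genes described here cover break sensing and end resection, the checkpoint kinases, the BRCA complexes, factors of strand exchange, the Fanconi complexes and the BLM complex that separates joined molecules. They were taken as a list by symbol and not by a rule on their values, although earlier results of these data were known. All 37 were found by their GENCODE symbol among the 58336 gene IDs of the tables. All 37 passed the filter on low counts, and the lowest expected count of a member in a library was 114.

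RNA was sequenced from clones of KGN, an established line derived from a granulosa cell tumour of the ovary, which is heterozygous for a mutation in the forkhead factor gene FOXL2. The WT/WT group (2 libraries named for 1 clone each, 44a and 4.72, and the library 4.72-44a) had the C134W mutation reverted with CRISPR/Cas9. The WT/C134W group (3.11 and 44b, and the library 3.11-44b) kept the mutation, and no editing is recorded in its labels. All cells were grown in DMEM-F12 with fetal bovine serum, and RNA was taken 30 h after a transfection whose content the labels do not give. The libraries 4.72-44a and 3.11-44b carry both clone names of their genotype and may be mixes, so genotypes were compared over the 4 single clones. Each genotype therefore rests on 2 clones, and the number of cultures behind a library is not stated. The p-values rest on the spread between these clones, moderated by the spread of all genes tested. Editing and genotype cannot be told apart.

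Repair by recombination is tied to the cell cycle. It needs a sister chromatid, so cells use it in the S and G2 phases, and many of its genes are transcribed in cycling cells under E2F factors. In the ovary these genes are best known from oocytes, which mend the programmed breaks of meiosis, and from inherited ovarian cancer.

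Total expected counts ran from 35332727 to 46613068 per library. On these totals alone, without TMM factors, 3 counts equal 0.0644 to 0.0849 CPM (counts scaled to the library total), which covers counting error only. The CPM values of genes given below also carry TMM factors over the 6 libraries, so they are on a slightly different scale. Of the granulosa markers checked, NR5A1 stood at 19.4 to 26.7 TPM (counts scaled by transcript length and library total), AMH at 18.0 to 44.4 TPM and FOXL2 at 2.17 to 5.48 TPM, while FSHR, AMHR2, GATA4 and WT1 were listed at 0 in all 6 libraries. A total FOXL2 level does not check which alleles a clone carries. Of the markers of other cell types, CD3E, LYZ, CDH5, DDX4 and DAZL were listed at 0 in all 6 libraries. PTPRC (0.16 to 1.00 TPM) and PECAM1 (0.14 to 1.90 TPM) were low but above 0 in each. DMC1 (up to 1.28 TPM), VWF (up to 0.13 TPM), KDR (up to 0.31 TPM), SYCP3 (up to 0.19 TPM), EPCAM (up to 1.17 TPM), CDH1 (up to 1.65 TPM) and KRT19 (up to 3.13 TPM) were above 0 in some. CD68, KRT8, KRT18 and the fibroblast markers COL1A1, COL3A1, DCN and PDGFRA were present in every library. The fibroblast marker LUM ran from 0.05 TPM in 3.11 to 7.85 TPM in 4.72-44a. Over the 25 genes of a G2 and M phase list, the clones 44a and 4.72 had medians of 52.9 and 29.8 CPM, and 3.11 and 44b of 140 and 68.1 CPM. The levels of these genes thus differed between clones as well as between genotypes, and in bulk RNA more cells in a phase and more RNA per cell cannot be told apart. Its part in the values below was not tested.

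The repair genes were expressed at low to middle levels in every library, from 1.34 to 69.5 TPM. RAD51C, a subunit of the paralog complexes that assist strand exchange, had the highest median over the 6 libraries, 38.8 TPM, followed by FANCA at 37.5 TPM and the checkpoint kinase CHEK1 at 35.5 TPM. Their ranges over the libraries overlapped, 31.3 to 63.2 TPM for RAD51C against 29.6 to 48.8 TPM for FANCA. At the other end stood 4 subunits of the Fanconi core and its anchor, FANCC (4.99 TPM), FANCB (4.79 TPM), FANCM (4.08 TPM) and FANCF (2.27 TPM). FANCG, a subunit of the same core complex, had a median of 29.1 TPM.

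**Figure D1:**
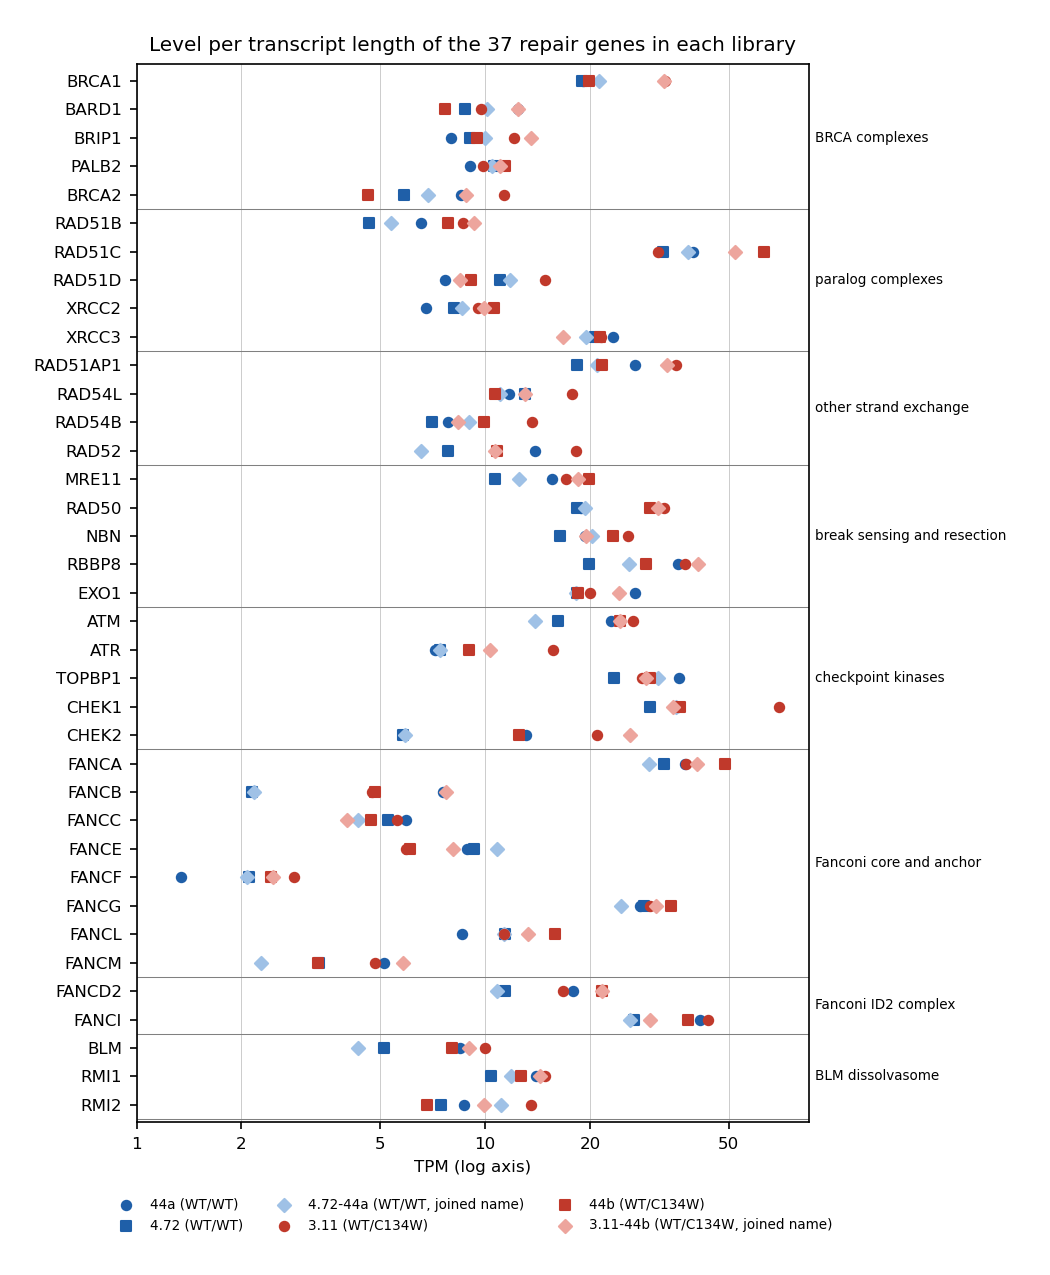
Level of each of the 37 repair genes in TPM (log axis) in the 6 libraries, grouped by role, with WT/WT in blue, WT/C134W in red and the joined names in pale colours. RAD51C, FANCA and CHEK1 lie to the right, between 29.6 and 69.5 TPM, and FANCF lies to the left, between 1.34 and 2.83 TPM.

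Differences between genotypes were small for most repair genes, and the values of at least 0.5 in log2 size without overlap of the clones were those of RAD50, RAD54B and CHEK2, higher with the mutation, and FANCE, lower. No member passed the threshold of 0.05 on the Benjamini-Hochberg adjusted p of edgeR's quasi-likelihood test when the single clones were compared, and neither did any other gene of 16416 tested (0%). The smallest adjusted p of a member was 0.593, at RAD50. Log2 fold changes, always of the mutant over the reverted genotype, ran from -0.76 to 0.68. Of the 37 members, 29 (78.4%) had a positive value, where 50.6% of all genes tested did, and their median was 0.17 beside 0.01 for all genes. Scaled by library totals alone, the split was 34 positive of 37, but that scaling moved the median of all genes to 0.23. An unadjusted p under 0.05 was found for 4 members (10.8%), against 7.57% of all genes. These were RAD50, RAD54B and FANCD2 with higher values, where 2.88% of all genes had them, and FANCE with a lower value, where 4.7% did. At 2 clones against 2, an exact permutation test of a single value cannot give a two-sided p below 0.333, so none was used. By DESeq2 0 members were called among 277 genes (1.83%, and 0.442% higher), and by edgeR without the low-count filter 0 members among 664 genes (2.73%, and 0.979% higher). With the joined libraries added as further replicates, edgeR called RAD50 (adjusted p = 0.0291) and FANCD2 (adjusted p = 0.0492), both higher, the count over all genes being 511 (3.18%, and 0.823% higher). That fit takes the joined libraries as clones of their own.

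Both mutant clones lay above both reverted clones for 14 members (37.8%), where 19.9% of all genes did so. Both lay below for 5 members (13.5%), beside 19.7% of all genes. When the joined libraries were included, 9 members remained apart with all 3 mutant libraries higher (24.3%, all genes 12%) and 3 with all 3 lower (8.11%, all genes 13.9%). The 9 were BRCA2, RAD51B, RAD54B, RAD50, ATR, CHEK2, FANCF, FANCD2 and FANCI, and the 3 were RAD51D, XRCC3 and FANCE. Leaving out any 1 clone kept the log2 fold change within 1.5 times its value for 8 members, namely RAD50, FANCD2, FANCE, FANCG, BARD1, RAD51B, RAD52 and XRCC3.

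**Figure D2:**
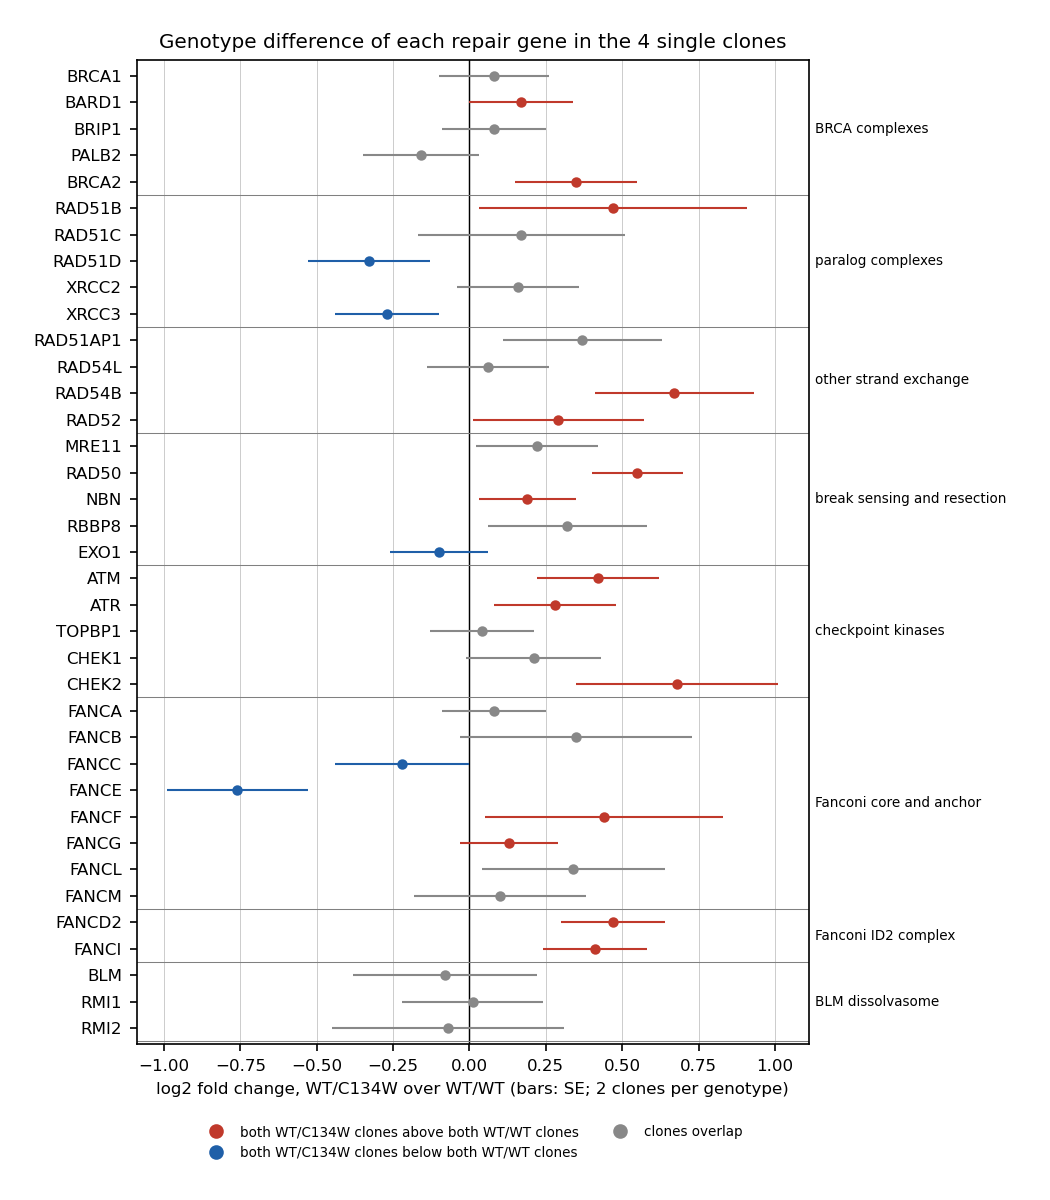
Log2 fold change (mutant over reverted) of each of the 37 repair genes in the 4 single clones, with the SE from edgeR's F value as bars. Red points (14 genes) have both mutant clones above both reverted clones and blue points (5 genes) the reverse. CHEK2 and RAD54B lie farthest to the right at 0.68 and 0.67, and FANCE lies farthest to the left at -0.76.

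The promoters of 4 genes with non-overlapping clones are shown, 3 with higher and 1 with lower levels in the mutant clones. They are RefSeq sequences (GRCh38.p14) from 250 bases before to 50 bases after the start site, with matches in capitals. The search covered an E2F motif (TTTCCCGC, TTTCGCGC, TTTGCCGC or TTTGGCGC), the CHR element of mitotic genes (TTTGAA or TTCGAA), the CCAAT box (CCAAT) and a forkhead motif (GTAAACA), on both strands. The motifs and the 4 promoters were chosen after the values were seen.
RAD50, chr5:132556727-132557026, plus strand: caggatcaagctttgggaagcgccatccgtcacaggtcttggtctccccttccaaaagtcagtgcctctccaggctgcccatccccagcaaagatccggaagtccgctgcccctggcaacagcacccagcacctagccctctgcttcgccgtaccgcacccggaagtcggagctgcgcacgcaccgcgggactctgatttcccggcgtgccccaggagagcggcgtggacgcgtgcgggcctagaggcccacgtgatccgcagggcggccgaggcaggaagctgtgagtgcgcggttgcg
CHEK2, chr22:28741771-28742070, minus strand: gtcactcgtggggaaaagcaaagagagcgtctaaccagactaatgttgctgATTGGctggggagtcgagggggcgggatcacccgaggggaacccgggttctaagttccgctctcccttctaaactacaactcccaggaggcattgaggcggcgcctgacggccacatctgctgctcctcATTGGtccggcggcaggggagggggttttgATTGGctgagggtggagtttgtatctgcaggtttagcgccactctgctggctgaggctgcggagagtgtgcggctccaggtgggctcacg
FANCD2, chr3:10026187-10026486, plus strand: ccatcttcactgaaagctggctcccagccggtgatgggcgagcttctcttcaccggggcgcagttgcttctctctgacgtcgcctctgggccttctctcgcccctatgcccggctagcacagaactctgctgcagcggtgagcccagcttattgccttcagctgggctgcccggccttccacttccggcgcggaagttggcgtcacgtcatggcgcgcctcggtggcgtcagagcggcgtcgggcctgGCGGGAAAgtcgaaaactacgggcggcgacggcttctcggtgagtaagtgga
FANCE, chr6:35452088-35452387, plus strand: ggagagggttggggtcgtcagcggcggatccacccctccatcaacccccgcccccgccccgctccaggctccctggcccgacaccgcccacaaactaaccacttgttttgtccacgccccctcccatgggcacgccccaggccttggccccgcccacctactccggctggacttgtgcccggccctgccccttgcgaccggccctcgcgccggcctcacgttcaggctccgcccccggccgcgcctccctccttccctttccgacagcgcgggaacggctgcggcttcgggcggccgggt

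FANCD2 held 1 E2F match, whose first base lies at -2 from the start site, and CHEK2 held 3 CCAAT boxes, while RAD50 and FANCE held none of the motifs searched. Promoters were found for 33 of the 37 members, 46 in all. The E2F motif was in 15.2% of them, in 50% of the promoters of an S phase gene list and in 3.31% of the 35116 promoters in the table. The CHR element was in 6.52% of member promoters, in 63% of G2 and M phase promoters and in 16.4% of all. CCAAT boxes were in 41.3% of member promoters and in 34.6% of all. The forkhead motif was in 0 of the 46, and in 3.42% of all. Of the members with an E2F match, FANCD2 was at 0.47, XRCC2 at 0.16, FANCA at 0.08, TOPBP1 at 0.04, RMI1 at 0.01, EXO1 at -0.10 and FANCC at -0.22. A match describes letters and shows no binding.

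Of the 3 subunits of the MRN complex, RAD50 had the widest gap between genotypes. This complex of MRE11, RAD50 and NBN binds broken ends and recruits ATM. RAD50, the long coiled-coil ATPase that bridges the ends (ENSG00000113522, chromosome 5, 132556019 to 132646344 on the plus strand, GRCh38), had 54.0 CPM in 44a, 53.9 CPM in 4.72 and 54.3 CPM in 4.72-44a. It had 76.5 CPM in 3.11, 81.0 CPM in 44b and 71.4 CPM in 3.11-44b. The 3 reverted libraries were nearly equal and all 3 mutant libraries lay well above them. The means of the single clones were 53.9 ± 0.0584 and 78.8 ± 3.16 CPM (SD, n = 2). The log2 fold change was 0.55 ± 0.15, where the error is the SE, with an unadjusted p of 0.0104 in edgeR's test across all genes. Leaving out 1 clone at a time kept the value between 0.50 and 0.59.

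The partners of RAD50 had smaller values, and the difference between subunits was not tested. MRE11, the nuclease of the complex, had 32.3 and 24.2 CPM in the reverted clones against 33.9 and 32.0 CPM in the mutant clones, and 44a overlapped the mutant clones. NBN, the adaptor that binds ATM, had 55.5 and 50 CPM against 64.2 and 56.0 CPM, with 44a and 44b almost equal and the joined library of the mutant below that of the reverted genotype. Their log2 fold changes were 0.22 ± 0.20 and 0.19 ± 0.16, and without 4.72 MRE11 was at 0.03 and NBN at 0.12. RBBP8, also called CtIP, which starts resection with MRE11, varied more between clones than between genotypes, with 57.8 CPM in 44a, 37.4 CPM in 4.72, 66.2 CPM in 3.11 and 52.6 CPM in 44b. EXO1, the nuclease that lengthens the resected tract, stood at 41.6 and 37.3 CPM against 37.2 and 36.5 CPM, and at 46.1 CPM in 3.11-44b, above every single clone.

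The effector kinase CHEK2 had the largest positive value of the 37 genes, from a low level. CHEK2, which ATM activates after a break (ENSG00000183765, chromosome 22, 28687743 to 28742422 on the minus strand), had 7.46 and 6.55 CPM without the mutation and 13.6 CPM in 3.11 but 8.84 CPM in 44b. The joined libraries held 4.90 and 12.2 CPM. The genotypes did not overlap, yet 3.11 stood far above 44b. The log2 fold change was 0.68 ± 0.33, with an unadjusted p of 0.0881 in edgeR's test, and it was 0.34 without 3.11. In TPM the clones 44a and 44b, at 13.1 and 12.5 TPM, overlapped. HSCB, a gene on the other strand, overlaps 6.7% of the exonic bases of CHEK2, and since the strand setting of the counting is not given, reads of the 2 genes there cannot be told apart.

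The apex kinases had smaller differences. ATM stood at 34.6 and 41.6 CPM in WT/WT, against 56.8 and 45.2 CPM with the mutation, a log2 fold change of 0.42 ± 0.20 that was 0.25 without 3.11 and 0.28 without 44a. The joined libraries narrowed this gap, at 45.6 CPM in 4.72-44a and 47.7 CPM in 3.11-44b, so that 4.72-44a lay above 44b. ATR, which responds to single-stranded DNA at stalled forks, had 34.1 and 33.3 CPM against 47.0 and 34.8 CPM. Only 3.11 stood clear of the other 3 single clones, and the log2 fold change was 0.28 ± 0.20, and 0.04 without 3.11. CHEK1, the effector of ATR, had a log2 fold change of 0.21 ± 0.22, and TOPBP1, the activator of ATR, had 89.4 and 71.9 CPM against 86.2 and 79.7 CPM. TOPBP1 was among the 3 members nearest to 0, at 0.04 ± 0.17, and its 2 mutant clones lay inside the range of the reverted ones. CHEK1 was at 0.02 without 4.72 and 0.06 without 3.11. The 5 genes of this checkpoint group had positive values with a median of 0.28, but without 3.11 the median was 0.06 and 4 of 5 were positive.

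In the Fanconi pathway, FANCE had lower and FANCD2 and FANCI had higher values in the mutant clones. The core complex is a ubiquitin ligase that marks FANCD2 and FANCI, the pair that clamps onto crosslinked DNA. FANCE, the core subunit that contacts FANCD2 (ENSG00000112039, chromosome 6, 35452356 to 35467103 on the plus strand), had 15.4, 16.5 and 18.7 CPM in 44a, 4.72 and 4.72-44a. It had 9.12, 9.77 and 12.8 CPM in 3.11, 44b and 3.11-44b. Every mutant library lay below every reverted one. The means of the single clones were 15.9 ± 0.723 and 9.44 ± 0.462 CPM (SD, n = 2), a log2 fold change of -0.76 ± 0.23 with an unadjusted p of 0.0177 in edgeR's test. This was the most negative value of the 37 genes, and it stayed between -0.82 and -0.71 without 1 clone at a time.

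FANCD2 (ENSG00000144554, chromosome 3, 10026414 to 10101930 on the plus strand) had higher values with the mutation. It stood at 26.0, 22.7 and 21.9 CPM in the reverted libraries and 34.3, 33.2 and 33.7 CPM in the mutant libraries. The mutant libraries were close to each other and all above the reverted ones, with a log2 fold change of 0.47 ± 0.17 and an unadjusted p of 0.0356 in edgeR's test. In TPM, where the length of its transcripts enters, the clones overlapped, at 17.9 and 11.4 TPM against 16.7 and 21.6 TPM. FANCI, its partner, had 77.9, 63.0 and 70.6 CPM against 98.8, 88.7 and 80.0 CPM. These 3 mutant libraries also lay above the 3 reverted ones in CPM, although 3.11-44b came near 44a. The log2 fold change was 0.41 ± 0.17, and 0.27 without 4.72. In TPM the clones of FANCI overlapped too, at 41.4 and 26.8 TPM against 43.6 and 38.1 TPM. POLG on the other strand overlaps 5.9% of the exonic bases of FANCI.

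The other core subunits had values of both signs. FANCC, which forms a subcomplex with FANCE and FANCF, had a log2 fold change of -0.22 ± 0.22 and overlapped once the joined libraries were added. FANCF had 4.01 and 6.41 CPM against 7.47 and 6.70 CPM, a value of 0.44 ± 0.39 that was 0.13 without 44a and 0.82 without 4.72. FANCA, a core subunit that binds FANCG, had 41.3 and 46.9 CPM in WT/WT against 44.0 and 48.9 CPM in WT/C134W. The clones of the genotypes interleaved, at 0.08 ± 0.17, and ZNF276 on the other strand covers 23.6% of its exonic bases. FANCG, FANCL (the catalytic subunit), FANCB and FANCM (the translocase that anchors the core to DNA) had 0.13, 0.34, 0.35 and 0.10. Single clones carried much of this, since FANCL was at 0.02 without 44b and FANCB at 0.04 without 4.72, while FANCM was at -0.02 without 3.11 and -0.07 without 4.72. Of the 8 core and anchor genes 6 were positive and 2 negative, with a median of 0.12 that was 0.06 without 44b and 0.07 without 4.72.

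**Figure D3:**
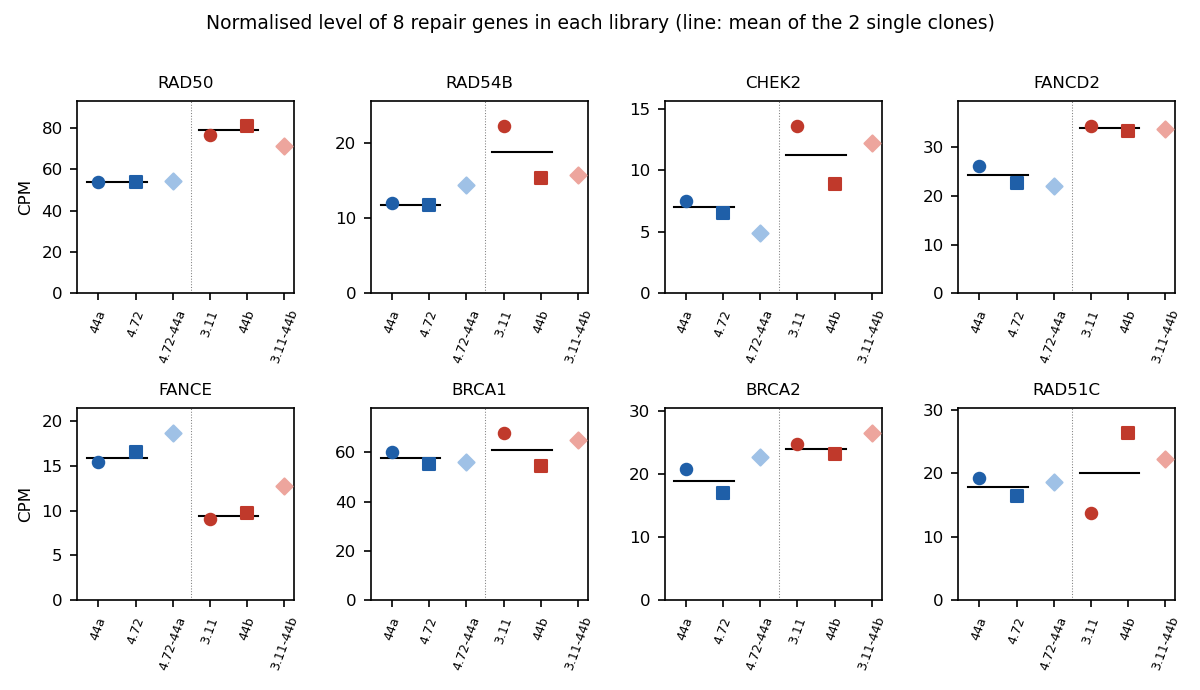
Normalised level in CPM of 8 repair genes in each of the 6 libraries, with WT/WT in blue, WT/C134W in red, joined names as pale diamonds and the mean of the 2 single clones as a line. The 3 mutant libraries lie above the 3 reverted ones for RAD50, FANCD2 and CHEK2 and below them for FANCE, while BRCA1 and RAD51C overlap.

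BRCA1, BARD1 and BRIP1 had small positive values and PALB2 a small negative one. BRCA1, a ubiquitin ligase subunit that promotes resection, had 60.3 and 55.3 CPM in WT/WT, 68.0 and 54.3 CPM with the mutation and 56.2 and 64.9 CPM in the joined libraries. Its log2 fold change was 0.08 ± 0.18, and the clone 44b lay below both reverted clones. BRCA2, which acts on resected single-stranded DNA, had 20.7 and 16.9 CPM against 24.7 and 23.1 CPM. Its joined libraries held 22.7 and 26.5 CPM, so the 3 mutant libraries were higher, but 4.72-44a and 44b differed by less than the 2 reverted clones did. The log2 fold change of BRCA2 was 0.35 ± 0.20, but 0.21 without 4.72 and 0.04 on log2(TPM + 1). BARD1, the partner of BRCA1 in the ligase, stood at 0.17 ± 0.17, the helicase BRIP1 at 0.08 ± 0.17, and PALB2, the bridge from BRCA1 to BRCA2, at -0.16 ± 0.19.

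The paralog complexes, which assist strand exchange, had 5 members that pointed in both directions. RAD51D had 21.6 and 24.0 CPM in WT/WT against 20.1 and 16.3 CPM, and XRCC3 had 28.5 and 26.8 CPM against 23.2 and 22.8 CPM. Their log2 fold changes were -0.33 ± 0.20 and -0.27 ± 0.17, without overlap of their CPM in the 6 libraries. Neither held in TPM: RAD51D was at 0.31 and XRCC3 at -0.03 on log2(TPM + 1), and XRCC3 had 23.3 and 20.6 TPM against 21.5 and 21.4 TPM. With library totals alone XRCC3 was at -0.04 and RAD51D at -0.10. A read-through gene on the same strand, RAD51L3-RFFL, shares the span of RAD51D. XRCC3 is uncertain, because KLC1, listed at 101 to 129 TPM on the other strand, overlaps 76.7% of its exonic bases. RAD51B, which works in the complex with RAD51C, RAD51D and XRCC2, had 2.58 and 2.96 CPM against 3.63 and 4.06 CPM, a value of 0.47 ± 0.44. RAD51C, which belongs to both paralog complexes, varied most between the 2 mutant clones, with 13.8 CPM in 3.11 and 26.4 CPM in 44b around reverted values of 19.3 and 16.4 CPM. Its genotype value of 0.17 ± 0.34 became -0.38 without 44b. XRCC2 stood at 0.16 ± 0.20, and at 0.00 without 44b.

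Among the other factors of strand exchange, RAD54B was higher in both mutant clones. RAD54B, a DNA translocase, had 12, 11.7 and 14.4 CPM in the reverted libraries and 22.3, 15.4 and 15.8 CPM in the mutant ones. The groups did not overlap, but 1 library, 3.11, carried much of the gap. The log2 fold change was 0.67 ± 0.26 with an unadjusted p of 0.0425 in edgeR's test, and 0.38 without 3.11. RAD54L, the closer homologue of yeast Rad54, had 15.0 and 16.2 CPM against 15.6 and 16.9 CPM, and the 4 clones interleaved at 0.06 ± 0.20. LRRC41 on the other strand overlaps 25.1% of its exonic bases. RAD52, the annealing factor, had 7.77 and 7.24 CPM against 9.26 and 9.08 CPM, but the joined libraries held 6.15 and 6.24 CPM, below all 4 clones. RAD51AP1, which stimulates strand invasion, had 0.37 ± 0.26, but 0.06 without 3.11 and 0.63 without 44b.

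The BLM complex showed no genotype difference beyond its spread. BLM, a helicase that dissolves joined molecules with RMI1 and RMI2, had 18.0 CPM in 44a and 11.3 CPM in 4.72 against 15.2 and 12.6 CPM. RMI1 had 26.2 and 18.6 CPM against 24.0 and 21.0 CPM, the value nearest to 0 of all members at 0.01 ± 0.23. RMI2 stood at -0.07 ± 0.38. In all 3 genes 44a was above 4.72 and 3.11 above 44b.

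That order of clones was common in the list. Of the 37 members, 26 were higher in 44a than in 4.72, where 48.4% of all genes were, and 27 were higher in 3.11 than in 44b, where 48.9% of all genes were. The median log2 ratios were 0.12 and 0.11, beside -0.01 and -0.01 over all genes. The clone 4.72 was the lowest of the 4 for 20 members and 3.11 the highest for 20 members. For 23 members the wider gap between 2 clones of 1 genotype exceeded the genotype difference. The counts of lowest clone, highest clone and wider gap were not made over all genes, so they cannot be called particular to the list. The ratios between clones compare single libraries and have no replicates. All 25 G2 and M phase genes had the same order, with medians of 0.78 and 0.83, and the part of the cell cycle in the repair genes was not tested.

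Beside other lists, the median of the repair genes lay between those of the S phase and the G2 and M phase genes. The G2 and M phase genes were positive in 25 of 25 with a median log2 fold change of 1.07, with TTK, BUB1, CENPE and PTTG1 having the smallest p. The spindle checkpoint kinase TTK stood at 22.6 and 16.8 CPM, against 48.5 and 34.0 CPM in the mutant clones. The S phase genes were positive in 9 of 27 with a median of -0.09. Their 4 smallest unadjusted p belonged to CDT1 (-0.66), CCNE2 (-0.62), CDC6 (-0.56) and E2F1 (-0.45), the last of them the factor that drives S phase transcription. Targets of p53 were positive in 22 of 26 with a median of 0.66, the smallest p belonging to CCNG1 (1.07), EDA2R (1.20), RRM2B (0.95) and DDB2. The mutant clones differed here, as only 2 of the 26 were higher in 3.11 than in 44b (median log2 ratio -0.53). Mean log2 CPM of these targets was 4.59 in 44a, 4.44 in 4.72, 4.70 in 3.11 and 5.35 in 44b. The end joining genes, which act on breaks without a template, were positive in 8 of 11 with a median of 0.12. In none of these lists did a gene pass over all genes tested by edgeR. An unadjusted p under 0.05 was found for 13, 5, 12 and 0 genes in that order. Of all genes tested, 50.6% were positive and 7.57% had such a p, 2.88% with higher and 4.7% with lower values.

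**Figure D4:**
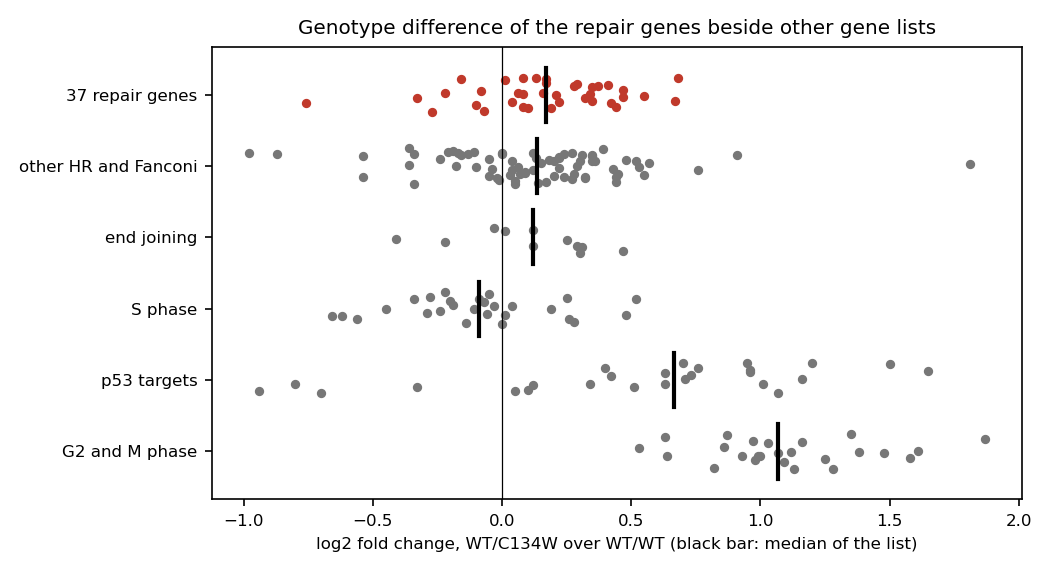
Log2 fold change (mutant over reverted) of each tested gene of 6 lists (1 point per gene, points spread vertically for visibility) with the median of each list as a black bar. The 37 repair genes have a median of 0.17, next to 0.14 for other recombination and Fanconi genes, -0.09 for S phase and 1.07 for G2 and M phase.

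Another 73 recombination and Fanconi genes, listed by function, had a median close to that of the members. Of 72 tested, 49 (68.1%, all genes 50.6%) were positive and 23 negative, with a median of 0.14. Over the 4 single clones, 22 were higher and 9 lower without overlap, where 19.9% and 19.7% of all genes were. By edgeR 0 passed over all genes, and 4 of the 72 had an unadjusted p under 0.05, 2 in each direction. Over all genes 7.57% had such a p, so the list did not stand out by this count. FAAP100 and FAAP20, accessory subunits of the Fanconi core, were lower in the mutant libraries: FAAP100 had 48.6, 57.0 and 56.5 CPM in the reverted libraries and 34.9, 38 and 28.9 CPM in the mutant ones. FAAP20 had 55.9, 66.4 and 59.6 CPM against 38.6, 45.9 and 43.3 CPM. Both had a log2 fold change of -0.54, and neither overlapped between the genotypes, where 13.9% of all genes were lower without overlap in the 6 libraries. They were named for their small p. Other accessory subunits differed, with CENPX at 0.31, CENPS at 0.44 and FAAP24 at -0.24 with overlapping clones. POLQ, the polymerase of theta-mediated end joining, had 18.3, 18.5 and 19.8 CPM against 35.8, 26.6 and 28.4 CPM, a value of 0.76 ± 0.21 with an unadjusted p of 0.0123. PARPBP, which restrains recombination, had 0.91 ± 0.36.

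The tables also hold the mean length of the transcripts that RSEM assigned to each gene, weighted by abundance, a readout apart from the count. Of the 37 members, 35 had more than 1 length. Over the 4 single clones the longest value was at least 1.5 times the shortest for 9 of them (25.7%), beside 14% of all genes with at least 50 counts. BRCA2, whose annotated transcripts in GENCODE run from 495 to 11986 bases, had a mean length of 3489 bases in 44a, 4050 bases in 4.72, 3563 bases in 3.11 and 7613 bases in 44b. Only 44b stood apart, and the joined libraries had 4729 and 4688 bases. The clone 44b had the longest transcripts of BRCA2 and its lowest TPM, 4.61 TPM, against 11.3 TPM in 3.11, although the 2 clones had 23.1 and 24.7 CPM. CHEK1 showed the reverse, with 1035 bases in 3.11 and 1349 to 1501 bases in the other single clones, and 69.5 TPM in 3.11 against 29.8 to 36.3 TPM. Levels per length and counts thus gave different orders of clones for BRCA2. For CHEK1, 3.11 was highest and 4.72 lowest in both. Only 44a and 44b changed places, at 34.8 and 31.7 CPM and at 35.7 and 36.3 TPM. The ratio of 1.5 was chosen after the lengths were seen.

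Genotypes did not overlap in length for 15 of the 35, longer in the mutant clones for 7 (20%, all genes 15.1%) and shorter for 8 (22.9%, all genes 17.6%). BARD1 was among the longer, with 2560 and 3336 bases in the reverted clones and 4067 and 4665 bases in the mutant clones, and 3541 and 3543 bases in the joined libraries. ATR was among the shorter, with 6715 and 6202 bases against 4796 and 5923 bases. At a minimum of 200 counts the 15 were the same, of 33 members (all genes 15.2% longer and 17.8% shorter). With all 6 libraries 6 members were apart, 3 longer (all genes 4.65%) and 3 shorter (all genes 6.79%), namely BARD1, XRCC2, RAD54B, EXO1, ATR and BLM. RAD50 kept a similar length in all libraries, 3589 to 4225 bases, and FANCE had a single value of 2554 bases. With lengths this even, TPM largely repeats the counts, so their non-overlapping genotypes in TPM are no separate support. RAD50 had 18.8 and 18.4 TPM against 32.6 and 29.7 TPM, and FANCE had 8.87 and 9.28 TPM against 5.93 and 6.09 TPM. For RAD51D the length was shorter in the mutant clones and its direction turned, from -0.33 on counts to 0.31 on log2(TPM + 1). The lengths rest on RSEM's division of reads among transcripts, whose error is not in the tables.

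**Figure D5:**
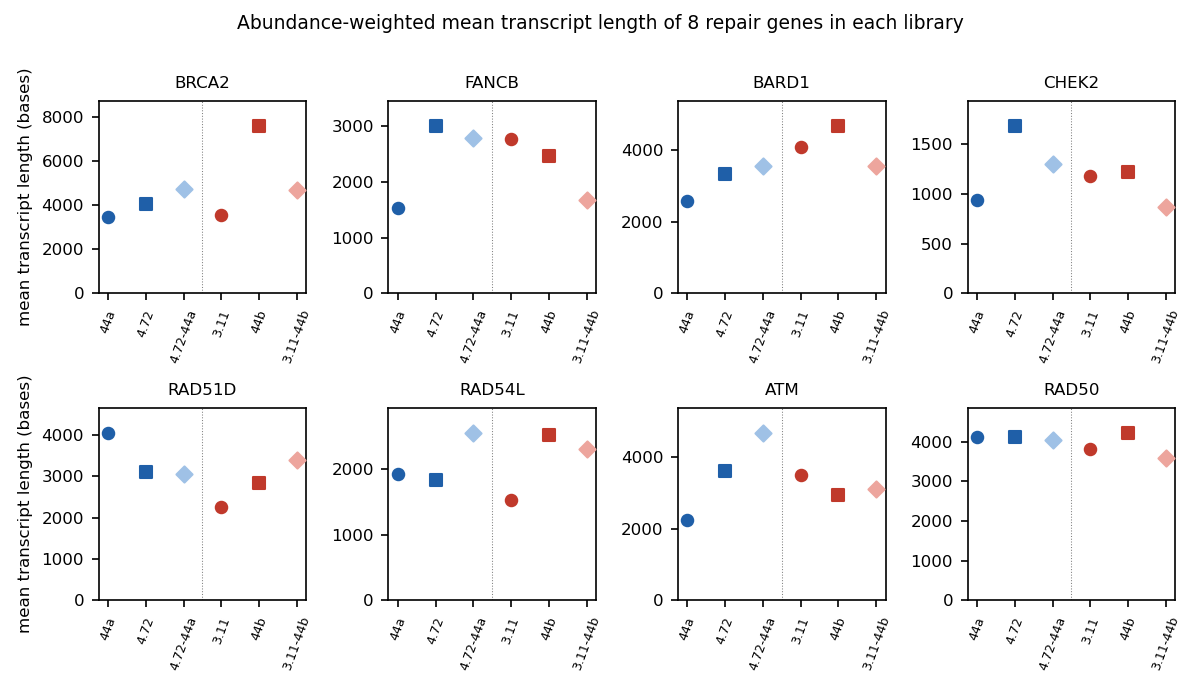
Abundance-weighted mean transcript length in bases of 8 repair genes in each library, for the 7 with the widest spread over the 4 single clones and for RAD50, with WT/WT in blue, WT/C134W in red and joined names as pale diamonds. BRCA2 stands at 7613 bases in 44b and between 3489 and 4050 bases in the other single clones, while RAD50 stays between 3589 and 4225 bases in all 6 libraries.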

How the data were processed

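RNA-seq gene tables of 6 libraries were used, grouped by the genotype label, 3 WT/WT and 3 WT/C134W. Per the labels' protocols, a stranded mRNA kit was used. Per the file headers, the deposited values are RSEM's expected counts (unscaled, with decimals because reads are shared out among transcripts), TPM and FPKM, with the length and effective length in bases. The FPKM deposited by the authors were not used. RSEM 1.3.1 and STAR 2.7.6a are listed in the submitters' processing notes, as are DESeq2 1.26.0, R 3.6.3 and Picard 2.8.1, with no roles. A mouse build is listed too, although the gene IDs are human. For the counting, the human build, the annotation and the use of strand are not given here.

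Symbols and coordinates came from GENCODE 29 (GRCh38), in which 58216 of 58336 gene IDs were found. The counting used another annotation for at least FANCF, whose length was 4269 bases in all 6 libraries, while GENCODE 29 lists 1 transcript of 2952 bases. Transcript ranges and overlaps with genes on the other strand are those of GENCODE 29 and may differ from those used in the counting. Expected counts were rounded and tested with edgeR 4.0.16 in R 4.3.3 (filterByExpr, TMM, robust quasi-likelihood fit, Benjamini-Hochberg over all genes tested, threshold 0.05) on the 4 libraries named for 1 clone. CPM values of genes are TMM-scaled over 6 libraries, while the CPM of 3 counts rests on library totals alone. SEs were derived from edgeR's F, as the size of the change over the root of F. The fit was tested on simulated data. With dispersions drawn per gene it made more false calls than its threshold allows. The simulation, not the fit, was then changed to trended dispersions. Dispersions were in each case scaled below those estimated from the clones, so the rate of false calls in these data was not measured. Members, lists and tests were chosen with earlier results of these data known. Clone values were given for BRCA1, BRCA2, ATM, ATR, FANCA, FANCD2 and RAD52, for members without overlap and at least 0.5 in log2 size, and for the 3 nearest to 0, while those of other members illustrate a role and were chosen after their values were seen. Up to 4 genes with the smallest p were named per other list. SLX1A, SLX1B, CENPX, CENPS and FAAP24 were named besides, after their values were seen. Some genes of the lists are not reported here. Alternatives were all 6 libraries, DESeq2 1.42.0, limma 3.58.1 voom, other scalings and filters, log2(TPM + 1) and log2(TPM + 0.1), each clone left out, and a block by name stem. Promoters are RefSeq sequences from the reference tables.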

Additional observations from a re-analysis of the deposited data

How the results depend on the processing

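The sign of the genotype value held under all 15 alternatives for 17 members, among them RAD50, FANCE, FANCD2, FANCI and RAD54B, and under the 14 that tested them for CHEK2, FANCB, FANCF, RAD51B and RAD52, which the filter at 10 CPM removed. Several alternatives could hardly turn a sign, as they refit the same 4 libraries. All 37 members kept theirs by DESeq2, by voom, with median-ratio scaling, without the low-count filter and with the replicate block. Held signs were not counted over all genes. A sign that held can go with a value near 0, as for BRCA2 (0.04) and XRCC3 (-0.03) on log2(TPM + 1). Genes called over all genes were 0 on the 4 single clones, 277 by DESeq2, 511 with all 6 libraries, 664 without the low-count filter and 5 with the replicate block (44a with 44b, and 4.72 with 3.11), where the first pair shares a name stem and the labels state no pairing. Members called were 2 with all 6 libraries and 0 otherwise. The block left 29 members positive. The median of the members, 0.17, was 0.39 with library totals alone, 0.30 on log2(TPM + 1) with or without the TPM filter and 0.32 on log2(TPM + 0.1). It ran from 0.11 to 0.26 without 1 clone at a time, the highest without 44a. The median of the other pathway genes, 0.14, was 0.36, 0.28 and 0.30 under those settings, and 0.07 to 0.15 without 1 clone. TPM values moved the median of all genes to 0.14 with a pseudocount of 1. Members apart in length were 15 on the single clones and 6 with all 6 libraries.

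Of the members that changed sign, those with all 6 libraries were BLM 0.00 and EXO1 0.06, and with library totals alone BLM 0.14, EXO1 0.12, FANCC 0.00, PALB2 0.06 and RMI2 0.15. On log2(TPM + 1), with or without the TPM filter, they were BARD1 -0.25, BLM 0.39, FANCM -0.04, PALB2 0.10, RAD51D 0.31, RMI2 0.23 and TOPBP1 -0.01. On log2(TPM + 0.1) they were BARD1 -0.27, BLM 0.44, FANCM -0.05, PALB2 0.11, RAD51D 0.34, RMI2 0.25 and TOPBP1 -0.01. Leaving out 1 clone at a time changed the sign of BLM (-0.37 to 0.28), BRCA1 (-0.09 to 0.22), BRIP1 (-0.03 to 0.18), FANCA (-0.03 to 0.17), FANCM (-0.07 to 0.28), RAD51C (-0.38 to 0.57), RAD54L (-0.01 to 0.12), RMI1 (-0.22 to 0.26), RMI2 (-0.51 to 0.26) and TOPBP1 (-0.11 to 0.19), given as the range over the 4 fits. In these fits the lone clone of a genotype is taken to vary like the 2 of the other. The cause of these changes was not tested.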

Other observations

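Reads of SLX1A and SLX1B, near-identical copies of the subunit that gives the SLX1-SLX4 nuclease its activity, were divided differently from library to library. SLX1A had 2.24 CPM in 44a, 18.0 CPM in 4.72, 10.3 CPM in 3.11 and 15.5 CPM in 44b, and SLX1B had 18.9, 3.79, 10.5 and 1.06 CPM in the same clones. Their sums were 21.1, 21.8, 20.8 and 16.5 CPM, so most of the spread of either copy was absent from the sum. Neither copy can be read alone.

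The joined library of the reverted genotype lay within the range of its 2 clones for 12 of the 37 members, where it did so for 49.3% of all genes, and that of the mutant genotype for 20 members, where the share of all genes was 49%. RAD52, EXO1 and FANCE were among the members outside the range in both.

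XRCC5 and XRCC6, the 2 subunits of the Ku heterodimer that starts end joining, had the smallest p among the end joining genes. XRCC5 had 284 and 263 CPM in the reverted clones against 332 and 345 CPM, and XRCC6 had 342 and 338 CPM against 420 and 412 CPM. Neither overlapped between the genotypes, also with the joined libraries at 293 and 349 CPM for XRCC5 and at 354 and 433 CPM for XRCC6. Over all genes 12% were higher without overlap in the 6 libraries. Their log2 fold changes, 0.31 ± 0.15 and 0.29 ± 0.15, did not pass edgeR's test over all genes (adjusted p = 0.719 for XRCC5, adjusted p = 0.734 for XRCC6).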
